A study of Mus musculus with 7 samples.

Results

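The insulin-like growth factor (IGF) family was examined in mouse brown fat through 10 genes: the ligand genes Igf1 and Igf2, the receptor genes Igf1r and Igf2r, and the binding protein genes Igfbp2 to Igfbp7. The members were taken by name from 18193 genes that had a probe set of their own on the array, a probe set being a group of short probes read together as 1 signal. The family had 28 such probe sets, between 1 and 6 per gene, and 27 of them passed the filter on low signal; the exception was 1 of the 5 probe sets of Igf1r. RNA came from the brown fat of male C57BL/6J mice aged 3 days, either knockout (KO) for Gyk, which encodes glycerol kinase, or wild type (WT). There were 4 KO arrays (replicates 1 to 4) and 3 WT arrays (replicates 1, 3 and 4), with 1 sample on each. The labels do not describe the knockout allele, and they do not say whether replicates were separate animals, and the p-values below cover only the variation among these samples, which may be technical. The level of Gyk is not analysed here, so the genotypes rest on the labels.

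IGF1 and IGF2 are small secreted growth factors that act mainly through the tyrosine kinase receptor encoded by Igf1r, whereas the receptor encoded by Igf2r takes up IGF2 and delivers it to lysosomes. The IGF binding proteins hold the ligands outside cells, extend their life and limit or deliver their access to the receptor. In rodents, IGF1 is known as a growth and differentiation signal for brown fat precursors, and Igf2 is an imprinted gene with high expression before and around birth.

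Igfbp3 was higher and Igf1 was lower in KO brown fat. Both probe sets of Igfbp3, the main carrier of IGFs in serum, rose, by 3.94-fold and 3.12-fold. On all 4 probe sets of Igf1 every KO array read below every WT array, where 7.25% of all tested probe sets did so. Of the 4, 1 fell past the threshold, by 2.04-fold. The other 8 members had no probe set past the threshold when all arrays were used. In all, 3 of the 27 tested probe sets of the family changed (limma, Benjamini-Hochberg adjusted p under 0.05), where 1.59% of all 27022 tested probe sets did. They were 2 higher and 1 lower, beside 0.951% higher and 0.644% lower over the whole table. Probe sets of 1 gene read the same transcripts and are not independent.

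The arrays had medians between 131.5 and 154 signal units, and their number limits the precision of each value. The array labelled KO replicate 2 stood apart from the other KO arrays. On the first principal component, with 35.3% of the variance, it lay 25.0% of the way from the WT mean to the mean of the other 3 KO arrays, and its closest match was WT replicate 1. Xist, a transcript that coats the silenced X chromosome of females, gave 2756.7 there on its strongest probe set, while no other array read above 272.7. The labels give every sample as male. Results are therefore also given without this array, where 7.35% of all tested probe sets passed. Because it was singled out in part for lying near the WT arrays, leaving it out tends to widen KO and WT differences. Smaller p-values without it are therefore no separate support. The brown fat marker Ucp1 averaged 31505 ± 4635 in KO and 30978 ± 2388 in WT samples (SD, n = 4 and 3), and 0 of 10 measured brown adipocyte markers changed by their brightest probe set (limma, 0 at an unadjusted p under 0.05). Fabp4, a fatty acid carrier, rose on another of its probe sets, 1424155_at (log2 difference 0.48, adjusted p = 0.0403), while its brightest gave 0.06 (adjusted p = 0.863). Its probe set 1425809_at gave 0.57 (adjusted p = 0.151), and 0.69 without KO replicate 2 (adjusted p = 0.0413). On 1451263_a_at the difference was 0.08 (adjusted p = 0.79).

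Igf1, whose peptide is made by many tissues besides the liver, was read by 4 probe sets. Probe set 1437401_at, the brightest, read 1346.5, 4523.5, 2173.5 and 2053 in KO replicates 1 to 4, against 5097.6, 5137.1 and 4714.4 in WT replicates 1, 3 and 4. Probe set 1434413_at read 1504, 4150.9, 1996.3 and 1968 in the KO arrays, against 4589.3, 5413.2 and 4706.3 in the WT arrays. On both, KO replicate 2 stood just under the WT arrays, with the other 3 KO arrays far below.

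Probe set 1452014_a_at of Igf1 read 432.4, 953.5, 573.2 and 564.5 in the KO arrays, against 1281.2, 1266.5 and 1259 in the WT arrays. The WT arrays were nearly equal here, and KO replicate 2 was again the highest of the KO arrays. The fourth probe set, 1419519_at, read 416.1, 767.1, 648.5 and 595.7 in the KO arrays, against 854.1, 1244.3 and 1071.5 in the WT arrays. KO arrays lay below WT arrays without overlap on all 4, where 7.25% of all tested probe sets did so.

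The log2 difference of KO minus WT was -1.03 ± 0.21 (SE) for 1452014_a_at, which passed (limma adjusted p = 0.0437). It was -1.12 ± 0.27 for 1434413_at (adjusted p = 0.0667), -1.11 ± 0.30 for 1437401_at (adjusted p = 0.0979) and -0.79 ± 0.20 for 1419519_at (adjusted p = 0.0791). With KO replicate 2 left out all 4 fell, by 1.44 on the log2 scale for 1437401_at (adjusted p = 0.00136) and by 0.90 to 1.42 for the others (adjusted p = 0.000539 to 0.02). The call on 1452014_a_at was lost when any array other than KO replicate 2 was left out, with adjusted p = 0.0887 to 0.146 and log2 differences of -1.04 to -0.88. It was also lost with scaling by the array median (adjusted p = 0.0569), with no filter on low signal (0.0822) and with no mean-variance trend (0.112).

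Igf1 was lower in both runs of sample accession numbers in which the arrays had been deposited. The first run held KO replicates 1 and 2 and WT replicate 1, and the second held KO replicates 3 and 4 and WT replicates 3 and 4. Within the second run all 4 probe sets of Igf1 fell, with log2 differences from -1.34 to -0.86 (limma adjusted p = 0.005 to 0.0324). In the first run, KO replicate 1 minus WT replicate 1 gave log2 differences from -1.90 to -0.99 over the 4 probe sets, and KO replicate 2 minus WT replicate 1 from -0.41 to -0.14. That run holds 1 WT array, so it allows no test. The second run leaves out KO replicate 2, so its smaller p-values are no separate support either. Both runs are parts of the same set of arrays.

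Within the second run 6 of the 27 probe sets of the family changed, where 2.69% of all tested probe sets did. They were the 2 of Igfbp3, beside 1.3% higher over the table, and the 4 of Igf1, beside 1.39% lower. With the run as a covariate 3 changed (background 2.34%), 2 higher and 1 lower, beside 1.25% and 1.08%. The Igf1 probe set 1452014_a_at was the lower one (adjusted p = 0.043).

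**Figure D1:**
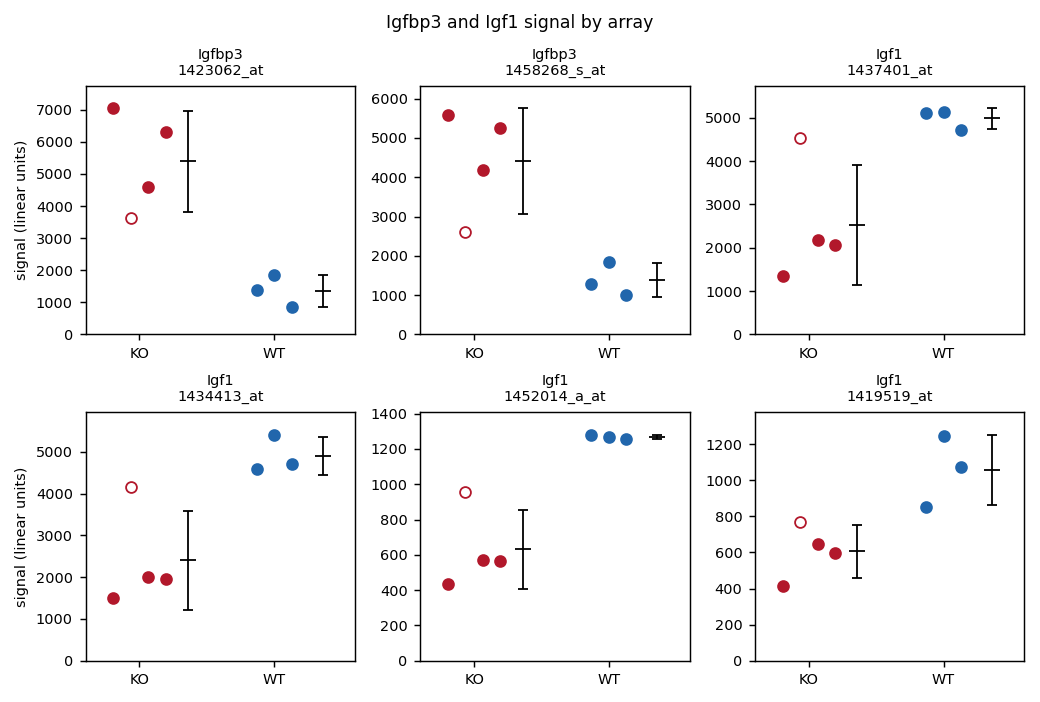
Signal (linear units) of each array for the 2 probe sets of Igfbp3 and the 4 probe sets of Igf1, with KO on the left (red) and WT on the right (blue); the open circle is the array labelled KO replicate 2, and black bars are the group mean ± SD. KO and WT arrays do not overlap in any panel, and the open circle is the lowest KO array for Igfbp3 and the highest for Igf1.

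Cells other than brown adipocytes also make Igf1, and in a whole tissue fewer cells of a type cannot be told apart from less RNA per cell. Markers of fibroblasts and preadipocytes had a mean log2 level relative to WT of -0.87, -0.36 and -0.35 in KO replicates 1, 3 and 4, and of -0.04 in KO replicate 2, against -0.14 to 0.13 in the WT arrays. Their summed signal was 58432.9 to 93363 in KO and 91240.4 to 100475 in WT samples. By the brightest probe set 0 of 13 measured markers changed with all arrays (limma). At an adjusted p under 0.05, 1.12% of all genes rose and 0.71% fell. At an unadjusted p under 0.05, 5 of the 13 were lower, where 4465 of all 27022 tested probe sets passed in either direction. Without KO replicate 2, 5 fell, namely Fap, Lum, Cd34, Dpt and Mfap5 (background 4.99%), and none of the 13 was listed at 0. Macrophage markers had 0 of 10 changed (2 higher unadjusted), with a summed signal of 9994.2 to 17293.6 in KO and 12437.3 to 13331.8 in WT samples. Without KO replicate 2, 1 of the 10 rose, Lyz2 (background 3.39%). The part of these cells in the Igf1 difference was not tested.

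The genes most like Igf1 across the 7 arrays, by Pearson correlation of log2 signal with 1437401_at, were Ugdh (r = 0.995), the collagen gene Col5a1 (0.994), Hoxc8 (0.994), the proteoglycan gene Lum (0.993) and S1pr3 (0.989). The 7 points share the 2 genotypes and the position of KO replicate 2. Lum, for instance, read 861.8, 2560.4, 1455.6 and 1334.5 in the KO arrays, against 2975.6, 2624 and 2538.8 in the WT arrays. As with Igf1, KO replicate 2 lay near the WT arrays.

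Igf2, the ligand of growth before birth, was bright on 1448152_at, with 8439.8, 10166.3, 9488.4 and 9092.5 in the KO arrays, against 11197.9, 10094.6 and 10513.5 in the WT arrays. KO replicate 2 lay among the WT arrays and the other KO arrays lay under them. The log2 difference was -0.19 ± 0.10 (adjusted p = 0.378), and -0.23 ± 0.09 without KO replicate 2 (adjusted p = 0.18), so neither passed. The dimmer probe set 1415931_at read 261.6 to 525 in KO and 336.7 to 624 in WT samples, with a log2 difference of -0.34 ± 0.24 (adjusted p = 0.549).

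Igf1r, the signalling receptor, had 5 probe sets. The brightest, 1452982_at, read 755.1, 725.2, 815.3 and 764.9 in the KO arrays, against 622, 567.8 and 465 in the WT arrays. All KO arrays, KO replicate 2 included, lay above all WT arrays. The log2 difference of 0.46 ± 0.13 did not pass (adjusted p = 0.115), nor did that of 0.48 ± 0.14 without KO replicate 2 (adjusted p = 0.0681). The other 3 tested probe sets overlapped between KO and WT and had log2 differences of 0.00 to 0.20 (adjusted p = 0.745 to 0.998). The probe set that did not pass the filter, 1452108_at, read 45.1 to 157.1 in KO and 9.9 to 82.6 in WT samples.

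Igf2r, the clearance receptor of IGF2, had no probe set past the threshold. Probe set 1424112_at read 1257.9, 1405.3, 1207.4 and 1436 in the KO arrays, against 1163.6, 1454.6 and 1474.1 in the WT arrays. The log2 difference was -0.04 ± 0.13 on this probe set (adjusted p = 0.929) and -0.01 ± 0.15 on 1424111_at (adjusted p = 0.978). KO and WT arrays overlapped on both.

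Igfbp3 encodes a binding protein that circulates in a complex with IGF and the acid-labile subunit. Probe set 1423062_at read 7045.5, 3621.2, 4590.3 and 6323.2 in the KO arrays, against 1388.5, 1844.9 and 857.5 in the WT arrays. The second probe set, 1458268_s_at, read 5597.5, 2600.1, 4196.7 and 5244.1 in the KO arrays, against 1274.1, 1852.3 and 1002.6 in the WT arrays. The lowest KO array was KO replicate 2 on both, and it still stood 1.96-fold and 1.40-fold above the highest WT array.

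The means of 1423062_at were 5395 ± 1568 in KO and 1364 ± 494 in WT samples (SD, n = 4 and 3), a log2 difference of 1.98 ± 0.27 (SE, limma adjusted p = 0.0189). For 1458268_s_at the log2 difference was 1.64 ± 0.26 (adjusted p = 0.0228). Without KO replicate 2 the differences were 2.15 ± 0.25 (adjusted p = 0.00139) and 1.88 ± 0.20 (adjusted p = 0.000977). Within the second run of accession numbers they were 2.07 and 1.76 (adjusted p = 0.0245 and 0.022), and in the first run KO replicates 1 and 2 lay 2.32 and 1.36 above WT replicate 1 on 1423062_at. The call on 1423062_at was lost without KO replicate 3 or 4 or WT replicate 1 or 4 (adjusted p = 0.0566 to 0.0683, log2 differences 1.69 to 2.04). Probe sets ending in s_at or x_at hold probes that can also match other transcripts. The call on 1458268_s_at was lost without any array other than KO replicate 2 (adjusted p = 0.0615 to 0.0977, log2 differences 1.44 to 1.88). With no mean-variance trend both calls were lost (adjusted p = 0.0762 and 0.0799), and with no filter that on 1458268_s_at (0.0507).

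KO replicate 2 lay between the WT mean and the other KO arrays for both changed genes. It was 67.6% and 50.5% of the way from the WT mean to the mean of the other KO arrays on the log2 scale for the Igfbp3 probe sets 1423062_at and 1458268_s_at. For the Igf1 probe sets it lay 9.57% to 47.7% of the way. For 1423062_at of Igfbp3 the most similar genes over the 7 arrays, by Pearson correlation of log2 signal, were Rmnd5a (r = 0.991), Zbtb2 (0.991), Gcnt2 (0.988), the clock gene Per1 (0.988) and the sodium pump regulator Fxyd2 (0.987). Endothelial markers, a cell type of every fat depot, had 0 of 12 members changed. Over all genes 1.12% rose and 0.71% fell at an adjusted p under 0.05. At an unadjusted p under 0.05 (limma), 3 of the 12 were lower, where 4465 of all 27022 tested probe sets passed in either direction. The summed signal of the 12 was 19597.7 to 23402.9 in KO and 19456.2 to 23754 in WT samples. Neutrophil markers had 1 of 8 members higher, Chil3, where 1.12% of all genes rose at an adjusted p under 0.05. At an unadjusted p under 0.05 (limma), 5 of the 8 were higher, where 4465 of all 27022 tested probe sets passed in either direction. All 8 had a log2 difference above 0, from 0.34 to 2.09 with a median of 0.60, and their summed signal was 6437.4 to 11376.9 in KO and 4524.8 to 6951.8 in WT samples. Of the 8, 3 rose without KO replicate 2, namely Chil3, Lcn2 and Ngp (background 3.39%). With the run as a covariate the same 3 rose, where 1.25% of all tested probe sets were higher. None of the 8 was listed at 0. The part of endothelial cells or neutrophils in the Igfbp3 difference was not tested.

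The 250 bases before the annotated start of Igfbp3 and Igf1, the members that changed, are shown from the RefSeq promoter table (GRCm38.p6), 5′ to 3′ on the strand of the gene, with each CG dinucleotide in capitals. The Igfbp3 stretch lies at chr11:7213924-7214173 on the minus strand and the Igf1 stretch at chr10:87860861-87861110 on the plus strand. Both lie inside the annotated span of their gene, which has a start further upstream.
Igfbp3: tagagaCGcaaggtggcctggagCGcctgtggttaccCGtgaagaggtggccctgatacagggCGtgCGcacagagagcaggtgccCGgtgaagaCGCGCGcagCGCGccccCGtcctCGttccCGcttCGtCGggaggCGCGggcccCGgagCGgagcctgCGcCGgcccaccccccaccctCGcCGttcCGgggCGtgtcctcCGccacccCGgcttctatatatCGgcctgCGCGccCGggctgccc
Igf1: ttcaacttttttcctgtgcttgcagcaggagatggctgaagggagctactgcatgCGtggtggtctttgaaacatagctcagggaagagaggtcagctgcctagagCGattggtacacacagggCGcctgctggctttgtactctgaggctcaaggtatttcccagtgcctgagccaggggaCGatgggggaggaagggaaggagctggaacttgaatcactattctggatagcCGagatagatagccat
The Igfbp3 stretch held 32 CG dinucleotides and the Igf1 stretch 5, where the median of all 32851 listed promoters was 6. Both strands were searched for TATAAA, for CCAAT, for GGGCGG and for TTCNNNGAA (the STAT element). These were present in 12.4%, 33.8%, 32.7% and 7.02% of all listed promoters over the same 250 bases. Igf1 held 1 match, a CCAAT beginning 142 bases before the start, and Igfbp3 held none in this window. Of the 14 listed promoters of the family, 2 held TATAAA (Igfbp4 and Igfbp6), 3 CCAAT and 6 GGGCGG, and 0 held TTCNNNGAA.

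**Figure D2:**
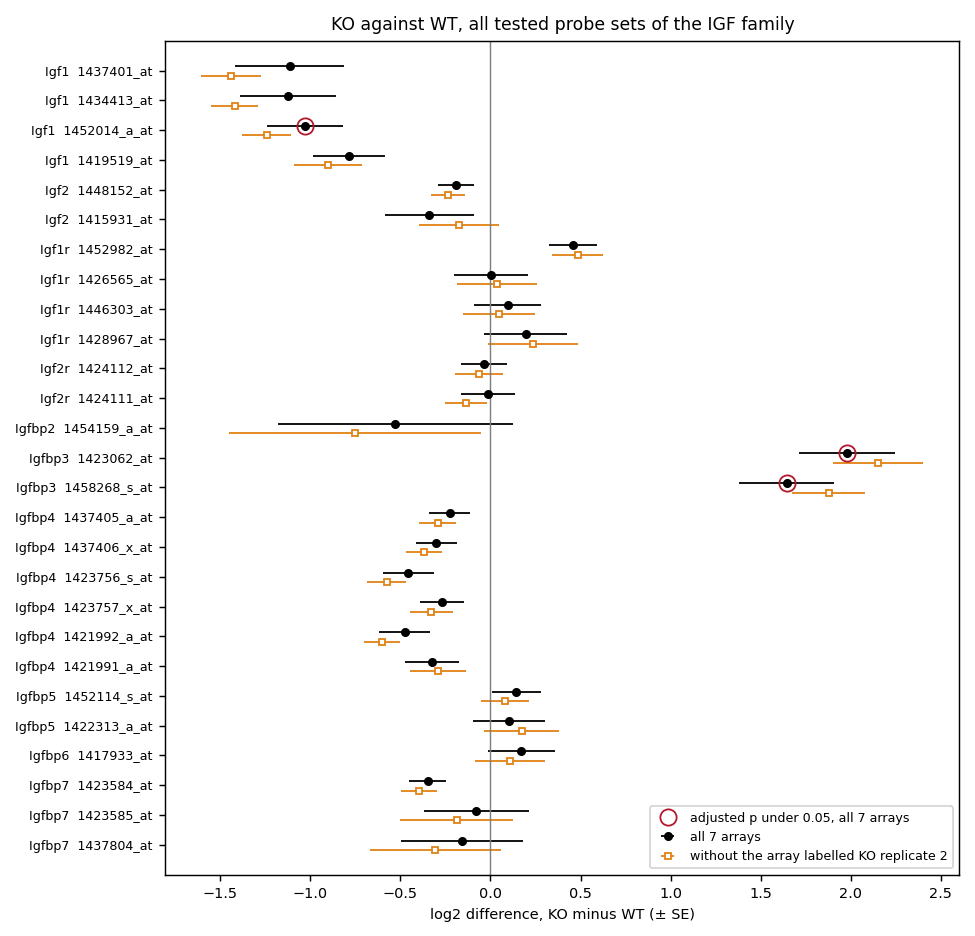
Log2 difference of KO minus WT (± SE) for the 27 tested probe sets, with all 7 arrays (black circles) and without the array labelled KO replicate 2 (open orange squares); red rings mark adjusted p under 0.05 with all arrays. The 2 probe sets of Igfbp3 lie furthest right and the 4 of Igf1 furthest left, and those of Igf1 move further from 0 without KO replicate 2.

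Igfbp4, which mostly restrains IGF action until proteases cut it, had 6 probe sets, all with a log2 difference below 0. On 1421992_a_at the KO arrays read 1415, 2116.9, 1456.8 and 1573.1, against 2235.6, 2322.5 and 2228.7 in the WT arrays. On 1423756_s_at they read 5496.8, 7179.7, 4605.9 and 5414.6, against 8391.1, 7195.1 and 7558.2 in the WT arrays. KO replicate 2 was the highest KO array on both and almost met the lowest WT array on the second.

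None of the 6 Igfbp4 probe sets passed with all arrays (limma, log2 differences -0.47 to -0.23, adjusted p = 0.126 to 0.36). At an unadjusted p under 0.05, 3 of the 6 passed, where 4465 of all 27022 tested probe sets did. Without KO replicate 2, 1421992_a_at fell by 0.60 (adjusted p = 0.00795) and 1423756_s_at by 0.58 (adjusted p = 0.0127), and the other 4 did not pass (adjusted p = 0.0526 to 0.32). In the second run of accession numbers the differences of these 2 probe sets were -0.58 and -0.56 (adjusted p = 0.0528 and 0.0558).

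Igfbp7, a secreted protein of vessel walls that binds IGFs weakly, was bright on 1423584_at. The KO arrays read 6198.6, 6493.6, 5646.4 and 5353, against 7107.5, 7499.3 and 8005.9 in the WT arrays. All KO arrays lay below all WT arrays, KO replicate 2 included. The log2 difference of -0.35 ± 0.10 did not pass (adjusted p = 0.124), but without KO replicate 2 it fell by 0.39 (adjusted p = 0.0421). Markers of pericytes and smooth muscle had 1 of 9 lower, Acta2, where 0.71% of all genes fell at an adjusted p under 0.05. At an unadjusted p under 0.05 (limma), 2 of the 9 were lower, where 4465 of all 27022 tested probe sets passed in either direction. Of the 9, 2 fell without KO replicate 2, Acta2 and Rgs5 (background 4.99%). Rgs5, a pericyte marker, fell by 0.78 there (adjusted p = 0.00714), and its difference with all arrays was -0.67 (adjusted p = 0.0593). The 9 markers had a summed signal of 13464.7 to 17845.9 in KO and 18669.8 to 21162.1 in WT samples, none was listed at 0, and their part in the Igfbp7 difference was not tested. The pair of dim probe sets of Igfbp7 read 51.3 to 145.5 in KO and 67.2 to 202.5 in WT samples, with log2 differences of -0.16 and -0.08 (adjusted p = 0.87 and 0.931).

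Igfbp5, an IGF binding protein of the extracellular matrix, read 2011, 2891.6, 2478.1 and 2845.4 on 1452114_s_at in the KO arrays, against 2276.3, 2378.8 and 2210.5 in the WT arrays. The WT arrays fell inside the range of the KO arrays. Its 2 probe sets had log2 differences of 0.14 ± 0.13 and 0.10 ± 0.20 (adjusted p = 0.665 and 0.856). Igfbp6, which prefers IGF2, read 1005.8, 1144, 899.7 and 967.5 in the KO arrays, against 1261.9, 713 and 767.2 in the WT arrays. The KO arrays lay inside the WT range, and the log2 difference was 0.17 ± 0.19 (adjusted p = 0.719).

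**Figure D3:**
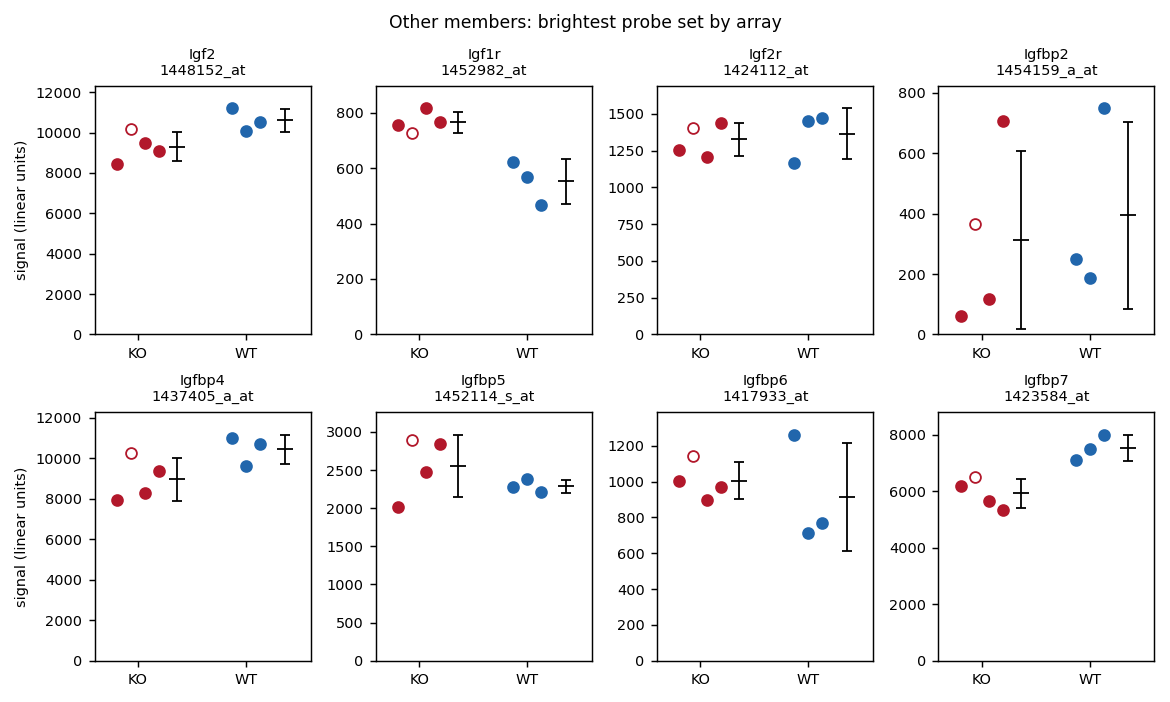
Signal (linear units) by array of the brightest probe set of each of the 8 members with no probe set past the threshold, KO on the left (red, KO replicate 2 open) and WT on the right (blue), with group mean ± SD in black. KO and WT arrays separate for Igf1r and Igfbp7, and Igfbp2 spans a wide range in both genotypes.

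Igfbp2, made by fat and in quantity by the neonatal liver, varied most within the genotypes. Its probe set 1454159_a_at read 59.8, 367.2, 118 and 707 in the KO arrays, against 248.8, 185.8 and 749.2 in the WT arrays. The ranges overlapped throughout, and the log2 difference of -0.53 ± 0.65 did not pass (adjusted p = 0.76). Igfbp1, a binding protein made mainly by the liver and not among the 10 members, read 186.6, 429.8, 79.3 and 650.4 in the KO arrays, against 204.1, 165.3 and 616.9 in the WT arrays. KO replicate 4 and WT replicate 4 were the highest arrays for both genes, followed by KO replicate 2.

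Hepatocyte markers, a list added after these values were seen, moved between arrays in much the same order. Their summed signal was 4136.1, 21867.8, 2612.5 and 21381.5 in KO replicates 1 to 4, against 13394.2, 4392.8 and 40436.4 in WT replicates 1, 3 and 4. Skeletal muscle and erythroid markers had 0 of 9 and 0 of 3 changed (1 higher and 1 lower unadjusted). Of 14 measured hepatocyte markers, none of them listed at 0, 0 changed with the genotype (0 unadjusted), and Alb, the albumin gene, averaged 2461 in KO and 4302 in WT samples (log2 difference -0.79, adjusted p = 0.765). Their part in the spread of Igfbp2, or in the differences of Igf1 and Igfbp3, was not tested.

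**Figure D4:**
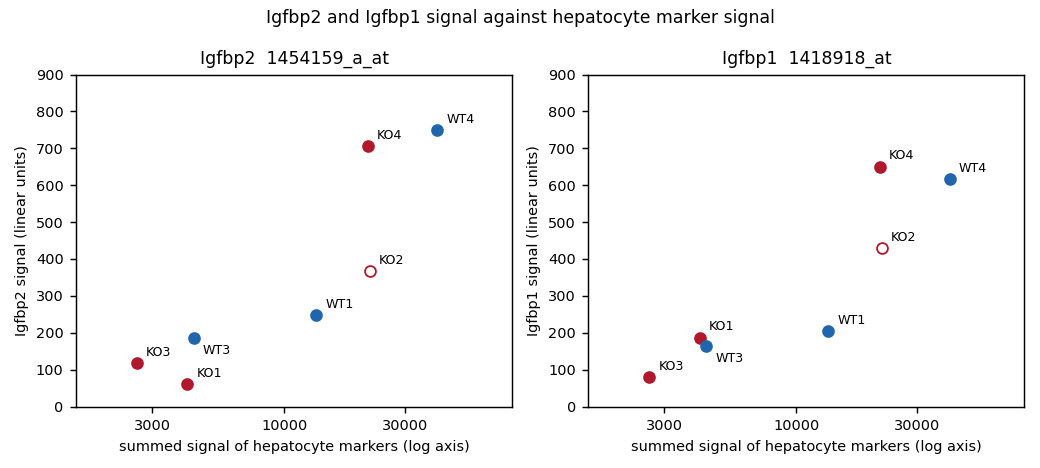
Signal of Igfbp2 (left) and Igfbp1 (right), in linear units, against the summed signal of 14 hepatocyte markers on a log axis, 1 point per array (KO red, KO replicate 2 open; WT blue). KO replicate 4, KO replicate 2 and WT replicate 4 have the most signal on both axes, and KO and WT arrays are mixed along the range.

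Across the family, 11 of the 27 tested probe sets had KO and WT arrays that did not overlap, where 14.7% of all tested probe sets did. In 8 of the 11 KO lay below WT and in 3 above, beside 7.25% and 7.48% over the table. The 8 came from Igf1, Igfbp4 and Igfbp7, and 10 of the 27 probe sets belong to Igf1 and Igfbp4 alone. The median log2 difference of the 27 was -0.19, beside 0.0005 over all tested probe sets. Without KO replicate 2, 9 of the 27 changed, where 7.35% of all tested probe sets did, of which 2 were higher (background 3.14%) and 7 lower (background 4.21%). These were the 2 of Igfbp3, the 4 of Igf1, 2 of Igfbp4 and 1 of Igfbp7.

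Other genes of the pathway were counted in 6 lists, each gene by its brightest probe set. Of 62 tested genes, 2 rose and 0 fell, where 1.12% of all genes rose and 0.71% fell. Without KO replicate 2, 2 rose and 2 fell (background 3.39% and 4.99%).

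The PI3K, Akt and mTOR branch, which carries the signal of the IGF and insulin receptors inside the cell, had 1 of 17 genes higher and 0 lower (median log2 difference 0.02). Foxo4, a transcription factor that Akt holds out of the nucleus, read 1237.1, 1260.9, 1215.7 and 1059.9 in the KO arrays on 1456753_at, against 704.2, 678.9 and 670.7 in the WT arrays. On this probe set Foxo4 rose 1.71-fold (limma adjusted p = 0.0202), with KO replicate 2 the highest KO array. Its dim probe set 1422149_at went the other way without passing (log2 difference -0.20, adjusted p = 0.681). Foxo3, a relative of Foxo4, rose 1.72-fold on 1434832_at (adjusted p = 0.0298) but not on its brightest probe set (log2 difference 0.15, adjusted p = 0.775).

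Among receptor relatives, substrates and adaptors 1 of 12 rose and 0 fell (median 0.22). Ptpn11, a phosphatase that transmits receptor signals to the Ras pathway, averaged 4345 ± 432 in KO and 2964 ± 155 in WT samples (SD, n = 4 and 3). On this probe set, 1451225_at, Ptpn11 rose 1.46-fold (limma adjusted p = 0.0403). Its dimmer probe sets 1421196_at and 1427699_a_at had log2 differences of 0.006 and 0.52 (adjusted p = 0.994 and 0.447). Without KO replicate 2, Grb14, an adaptor that inhibits insulin receptor signalling, fell by 1.05 on the log2 scale (adjusted p = 0.034), while its difference with all arrays was -0.75 (adjusted p = 0.291).

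The growth hormone axis, which drives Igf1 in the liver and other tissues, had 0 of 9 genes changed (limma, 1 lower unadjusted; median -0.14). Ghr, the growth hormone receptor, averaged 5213 ± 1269 in KO and 6847 ± 515 in WT samples on 1417962_s_at (log2 difference -0.42, adjusted p = 0.228), and fell by 0.57 without KO replicate 2 (adjusted p = 0.0148). Its 2 further probe sets had log2 differences of -0.01 and -0.36 (adjusted p = 0.979 and 0.383). Socs3, a feedback inhibitor of cytokine receptors, averaged 251.9 in KO and 337.8 in WT samples (adjusted p = 0.363).

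Of the proteases that cut IGF binding proteins and their inhibitors, 0 of 12 changed (2 higher unadjusted; median 0.09). Stc1, whose product inhibits pappalysin proteases, averaged 685.5 ± 199.5 in KO and 390.3 ± 105 in WT samples (adjusted p = 0.133), and Timp3, a metalloprotease inhibitor, averaged 1713 ± 409 in KO and 1216 ± 213 in WT samples (adjusted p = 0.23). The other binding proteins and the acid-labile subunit had 0 of 7 changed (0 unadjusted; median -0.04). Igfals, the gene of the acid-labile subunit, averaged 138 ± 109 in KO and 229.3 ± 52.4 in WT samples (adjusted p = 0.38), and Ccn3, a matricellular relative, averaged 1049 ± 255 in KO and 1420 ± 392 in WT samples (adjusted p = 0.368). On a dimmer probe set, 1426851_a_at, Ccn3 had a log2 difference of -0.59 (adjusted p = 0.108). Without KO replicate 2 that difference was -0.70 (adjusted p = 0.0227). Regulators of Igf2 had 0 of 5 changed (0 unadjusted; median -0.05), with Dnmt1, the maintenance DNA methyltransferase, at a log2 difference of -0.22 (adjusted p = 0.545) and Plagl1, a zinc finger protein, at -0.28 (adjusted p = 0.549). On the dimmer probe sets 1450533_a_at and 1438588_at, Plagl1 was at -1.04 and 0.47 (adjusted p = 0.174 and 0.338).

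**Figure D5:**
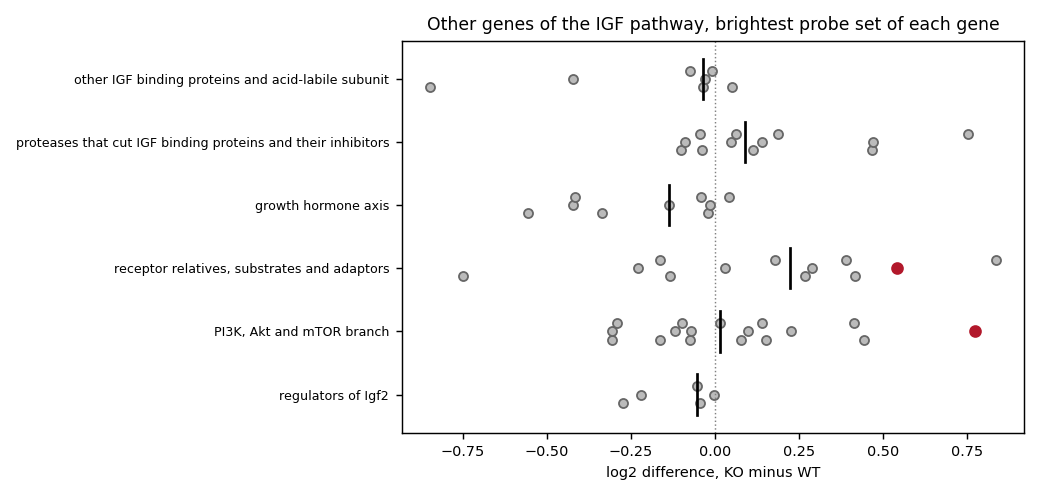
Log2 difference of KO minus WT for the brightest probe set of each tested gene in 6 lists of the IGF pathway; red points have adjusted p under 0.05, grey points do not, and black bars are list medians. The red points are Ptpn11 among the adaptors and Foxo4 in the PI3K, Akt and mTOR branch.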

How the data were processed

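RNA had been extracted with Trizol and biotin-labelled, with each sample on its own array, according to the labels' protocols. The authors deposited signal intensities (linear, 1 for each probe set) without detection calls. The submitters' processing notes name GCOS 1.2. How the arrays were scaled is not stated in these sources. The mean after trimming 2% at each end was 500.003 on every array, so this scaling was kept. Of 45101 probe sets, 64 controls were left out; 34945 had 1 gene symbol, 932 several and 9160 none, with symbols updated through a RefSeq gene table (GRCm38.p6).

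Values were analysed as log2(signal + 30.6), the 20th percentile of all values, which understates the change of dim probe sets. Probe sets under the 40th percentile of mean log2 value were left out, leaving 27022. KO was compared with WT with the two-sided moderated test of limma 3.58.1 (R 4.3.3; trended eBayes), adjusted by Benjamini-Hochberg over all 27022 and called at 0.05; fold changes are on this scale. The fit was tested on simulated data. The members, gene lists and tests were chosen with earlier results of these data known; pathway genes were named if past the threshold, otherwise the 2 with the smallest p of each list, and the 5 genes most like each changed member were named by correlation with its brightest tested probe set. Other genes (Grb14, Igfbp1, Xist and the cell type markers) were named after their values were seen. Alternatives covered normalization, offset, filter, variance model, array weights, blocks and leaving out each array.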

Additional observations from a re-analysis of the deposited data

Results flagged for a closer look

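One probe set of Igf1r, 1428967_at, had a KO array far from the other 3: KO replicate 3 read 247.9, while the other KO arrays read 165.5 to 173.7. The WT arrays read 108.7, 177.7 and 203.7. The gap was 0.883 of the range of the 4 KO arrays on the log2 scale, above Dixon's 95% critical value. This was the only one of 28 probe sets of the family examined in this way in the KO arrays, and chance gives such a gap in about 1 of 20 groups. The log2 difference without KO replicate 3 was 0.08 (limma adjusted p = 0.939), against 0.20 with all arrays (adjusted p = 0.745).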

How the results depend on the processing

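With the settings of the report, 431 probe sets changed among all tested and 3 of the family. Scaling by the array median gave 235 over the whole table and 2 of the family. No filter gave 100 of 45037 and 1 of 28, and no mean-variance trend 6 and 0. With no trend, 10 of the family had an unadjusted p under 0.05 (limma), beside 4096 of all 27022 tested probe sets. Array weights gave 1312 and 8. With 1 probe set per gene, 334 of 13102 changed over the whole table and 1 of 10 in the family. Within the second run of accession numbers alone, an alternative chosen after seeing the data, 726 and 6 changed. Leaving out each array gave 7 to 1986 over the whole table and 0 to 9 of the family, with 1986 and 9 without KO replicate 2. The family had 1 without KO replicate 1 or WT replicate 3, and 0 without KO replicate 3 or 4 or WT replicate 1 or 4. In the fits that gave 0, 10 to 13 of the family had an unadjusted p under 0.05 (limma), beside 3357 to 3657 of all 27022 tested probe sets. With the replicate number as a block, which drops KO replicate 2 because no WT array shares its number, 2183 and 8 changed. Same-numbered arrays deviated together with r = 0.0567, 0.149 and 0.105. WT replicates 3 and 4 were closest to the KO arrays of their own number, and WT replicate 1 to KO replicate 2 (0.183). These values do not settle whether the numbers mark pairs, and the main fit does not pair them. The directions of Igfbp3, Igf1, Igf2, Igfbp4, Igfbp6, 1452982_at of Igf1r, 1452114_s_at of Igfbp5 and 1423584_at of Igfbp7 were the same under every alternative run. Other differences crossed 0, none of them past the threshold under any alternative, and the cause was not tested. Leaving out single arrays gave -0.16 to 0.23 for Igf1r 1426565_at, -0.034 to 0.20 for 1446303_at, -0.026 to 0.35 for 1428967_at, -0.14 to 0.024 for Igf2r 1424112_at, -0.14 to 0.057 for 1424111_at, -1.05 to 0.027 for Igfbp2, -0.071 to 0.29 for Igfbp5 1422313_a_at, -0.21 to 0.16 for Igfbp7 1423585_at and -0.37 to 0.26 for 1437804_at. With an offset of 100, 1426565_at was at -0.0036, and within the second run it was at -0.038, 1446303_at at -0.12 and 1422313_a_at at -0.093. The 7 arrays limit the precision of every value here.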

Other observations

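Antisense transcripts are annotated beside both ligand genes. Igf1os, whose annotated span overlaps that of Igf1, read 73.8, 68.4, 71.9 and 65.3 in the KO arrays, against 18.3, 70 and 57.4 in the WT arrays, and did not pass the filter on low signal. Igf2os averaged 203 ± 37.7 in KO and 206.3 ± 26.5 in WT samples (SD, n = 4 and 3; log2 difference -0.03, limma adjusted p = 0.962). One probe set shared by Airn and Igf2r, 1440979_at, could not be given to either gene. It read 27.7 to 104.1 in KO and 22 to 87.1 in WT samples and did not pass the filter.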
